A study of Mus musculus with 10 samples.

Results

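The interleukin-1 (IL-1) family genes described here are 8 named genes of the 36047 genes summed from the deposited transcript tables: the ligands Il1a, Il1b, Il33 and Il18, the receptor antagonist Il1rn, and the receptor chains Il1r1, Il1rap and Il1rl1. They were measured by poly-A RNA sequencing of quiescent hepatic stellate cells, the vitamin A storing pericytes of the liver, from C57BL/6 male mice. After isolation the cells had been in culture for 5 hours, and starving media with recombinant mouse Areg (amphiregulin, which binds and activates the EGF receptor) at 500 ng/mL or with control then followed for 4 hours. There were 5 Areg libraries and 5 control libraries, all from the same strain, sex and culture scheme. The labels give no age of the mice and do not say whether libraries came from separate animals, pools or cultures, so p-values here reflect how these libraries varied, and that variation may be technical.

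IL-1α and IL-1β bind the receptor IL1R1, which then recruits the accessory chain IL1RAP and signals through MyD88 and IRAK kinases to NF-κB and MAP kinases. The antagonist encoded by Il1rn occupies IL1R1 without recruiting the accessory chain. IL-33 is a nuclear protein released from damaged cells that acts through ST2 (Il1rl1) paired with the same accessory chain, while IL-18 uses a receptor pair of its own. In injured liver, IL-1 made by macrophages is known to act on stellate cells, and IL-33 is known as an alarm signal in liver fibrosis.

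Summed estimated counts ranged over 14365027 to 20057962 in Areg libraries and 10125184 to 17566891 in control libraries. Controls 3 and 4, the shallowest libraries, had scores of 51.1 and 31.0 on principal component 1, while the other 8 libraries had -18.3 to 0.626. Of 12 stellate cell markers, led by Ecm1, Reln and Rgs5, all were detected. Their summed level was 6291 to 6454 CPM (TMM-scaled estimated counts relative to library size) in Areg libraries and 6820 to 7350 CPM in control libraries, without overlap. In that list 4 genes (Lrat, Ecm1, Ngfr and Lhx2) fell and 0 rose, where 8.32% of all tested genes fell. Markers of Kupffer cells and macrophages, led by Cd5l, Cd68 and Lyz2, summed to 664 to 713 CPM in Areg libraries and 669 to 732 CPM in control libraries, with 0 of 12 passing the test. Sinusoidal endothelial markers, led by Cdh5, Lyve1 and Pecam1, summed to 4638.5 to 4767 CPM with Areg and 4618 to 5039 CPM in controls. Hepatocyte markers, led by Alb, Cyp3a11 and Serpina3k, summed to 1339.7 to 1674 CPM with Areg and 1200 to 1976 CPM in controls. Neutrophil markers, led by Csf3r, Mmp9 and Cxcr2, summed to 5.04 to 7.56 CPM with Areg and 6.82 to 8.83 CPM in controls. Cholangiocyte markers, led by Sox9, Krt7 and Krt19, summed to 4.52 to 5.64 CPM with Areg and 3.79 to 7.28 CPM in controls. Nearly all of the lymphocyte and mast cell sum, 528 to 570 CPM with Areg and 504 to 564 CPM in controls, came from Kit, followed by Cd79a and Gata3, while Cpa3 and Mcpt4 had 0 counts. The mesothelial list, led by Krt8, Wt1 and Gpm6a, summed to 105 to 141 CPM with Areg and 75.7 to 99.4 CPM in controls, without overlap, of which Krt8 gave 119 CPM with Areg and 85.5 CPM in controls. Krt8 was the 1 mesothelial marker that rose (log2 fold change 0.49, adjusted p 0.00311 by edgeR), 0 fell, and 5 of the 8 averaged under 1 CPM. In the endothelial, hepatocyte, neutrophil, lymphocyte and mast cell, and cholangiocyte lists 0 genes passed. The part of these cell types, of depth and of controls 3 and 4 in the results was not tested beyond the fits given beside them, and in such bulk RNA more cells of a type cannot be told apart from more RNA per cell.

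In Areg cultures 4 of the 8 genes rose and 0 fell: Il1b, Il1a, Il33 and Il1r1. Il1b rose 1.54-fold, Il1a 1.32-fold, Il33 1.24-fold and Il1r1 1.23-fold. The test was edgeR's quasi-likelihood test of summed estimated counts, with Benjamini-Hochberg adjustment over all 13362 tested genes and a threshold of 0.05. Il1rn, Il18, Il1rap and Il1rl1 did not pass it. Over all tested genes 16.7% passed in either direction, 8.34% passed as higher and 8.32% as lower. All 8 genes passed the filter on low counts. In the 4 that passed, every Areg library lay above every control library in CPM, as was so for 7.64% of tested genes, while 7.06% had every Areg library below.

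**Figure D1:**
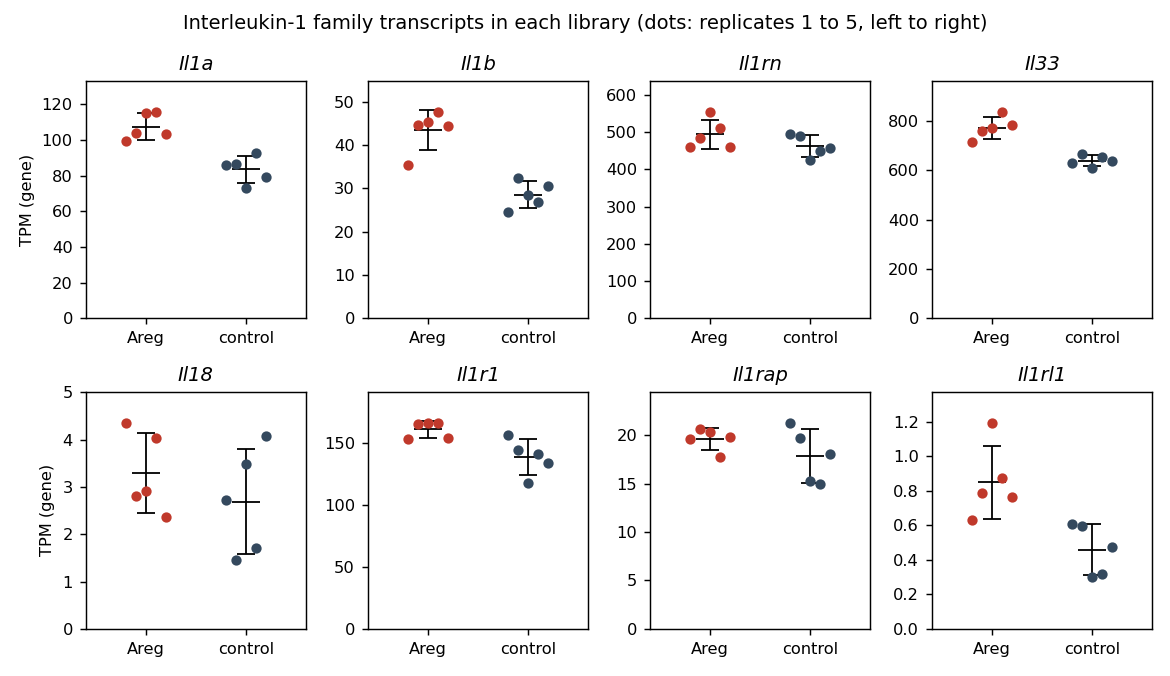
Gene level in TPM (transcript abundance per length, y axis from 0, a scale of its own in each panel) of the 8 genes in each library. Dots are libraries 1 to 5 of each group from left to right, and bars give the mean ± SD (n = 5 each). Il1a, Il1b, Il33 and Il1rl1 (which did not pass the test) separate fully, while Il1rn, Il18, Il1r1 and Il1rap overlap on this scale.

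Per length, in TPM, the order of mean levels was Il33, Il1rn, Il1r1, Il1a, Il1b, Il1rap, Il18 and Il1rl1. No neighbours in that order overlapped over libraries, in Areg or in control cultures. Il33 averaged 773 TPM with Areg and 639 TPM in controls, which put it at rank 192 of the 13362 tested genes by mean TPM. Il1rn was at rank 302, Il1r1 at 1045 and Il1a at 1714. Il1b was at rank 4366, Il1rap at 6449, Il18 at 10736 and Il1rl1 at 12767. The alarm cytokine and the antagonist were thus the most abundant transcripts of the 8, and the ST2 receptor the least. Markers of endothelial cells, hepatocytes and macrophages were detected too, and which cells gave the 8 transcripts cannot be told from bulk RNA.

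Promoter sequences of the 4 genes that rose are shown because they let a reader compare the start regions of genes that moved in the same direction. They come from RefSeq on GRCm38.p6 and run from 250 bases before to 50 after a start site. All 8 genes have at least 1 such window, 13 windows in all. Capitals mark the matches to the AP-1 motif TGANTCA, the NF-κB consensus, the TATA box TATAAA, the cyclic AMP response element (CRE) TGACGTCA and the serum response element, each searched on both strands, and none of the capital runs overlap.
Il1a, chr2:129309923-129310222, minus strand: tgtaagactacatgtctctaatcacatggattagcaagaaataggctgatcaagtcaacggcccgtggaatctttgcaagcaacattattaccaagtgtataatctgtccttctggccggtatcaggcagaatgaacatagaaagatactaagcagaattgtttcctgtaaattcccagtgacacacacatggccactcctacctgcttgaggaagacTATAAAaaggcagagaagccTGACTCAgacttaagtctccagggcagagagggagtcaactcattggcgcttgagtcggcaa
Il1b, chr2:129371090-129371389, minus strand: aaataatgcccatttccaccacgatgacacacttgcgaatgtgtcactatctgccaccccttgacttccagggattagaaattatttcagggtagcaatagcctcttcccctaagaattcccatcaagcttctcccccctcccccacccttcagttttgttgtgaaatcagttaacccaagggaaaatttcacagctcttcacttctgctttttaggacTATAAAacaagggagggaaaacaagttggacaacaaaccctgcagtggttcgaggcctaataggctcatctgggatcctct
Il33 upstream start, chr19:29924863-29925162, plus strand: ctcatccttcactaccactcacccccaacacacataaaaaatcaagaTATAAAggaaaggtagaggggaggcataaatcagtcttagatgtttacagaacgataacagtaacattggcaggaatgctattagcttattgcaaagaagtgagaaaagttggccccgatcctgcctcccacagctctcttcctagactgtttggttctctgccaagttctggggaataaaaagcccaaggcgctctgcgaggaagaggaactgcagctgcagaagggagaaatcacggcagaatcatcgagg
Il33 downstream start, chr19:29945540-29945839, plus strand: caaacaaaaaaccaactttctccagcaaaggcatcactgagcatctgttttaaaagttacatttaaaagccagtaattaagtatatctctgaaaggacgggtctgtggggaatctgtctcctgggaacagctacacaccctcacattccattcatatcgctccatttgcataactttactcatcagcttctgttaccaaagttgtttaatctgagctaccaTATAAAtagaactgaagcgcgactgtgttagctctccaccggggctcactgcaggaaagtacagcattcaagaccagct
Il1r1 downstream start, chr1:40266336-40266635, plus strand: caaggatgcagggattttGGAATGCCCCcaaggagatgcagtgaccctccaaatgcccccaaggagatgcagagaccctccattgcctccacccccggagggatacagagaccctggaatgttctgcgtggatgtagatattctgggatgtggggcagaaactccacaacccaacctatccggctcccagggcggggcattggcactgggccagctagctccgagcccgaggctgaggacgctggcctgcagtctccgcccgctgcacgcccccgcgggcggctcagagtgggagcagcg
In the Il1a window a TATA box began 32 bases before the start and an AP-1 match 12 bases before it. The Il1b window held a TATA box 31 bases before the start and no match to the other 4 motifs. The downstream Il33 window had a TATA box 29 bases before the start, and the upstream Il33 window had one 203 bases before. The downstream Il1r1 window had an NF-κB match 232 bases before the start, while the upstream Il1r1 window, which gave little of the RNA and is not shown, had no match to any of the 5 motifs. Among the other windows not shown, the upstream Il1rn window had an AP-1 match 141 bases before its start, a downstream Il1rn window had a TATA box 14 bases after its start, and the Il18 window had a TATA box 175 bases before its start. The remaining ones had no match. Over 32851 promoter windows of the same length, 13.6% held the TATA box, 7.81% the AP-1 motif, 4.51% the NF-κB consensus, 1.79% the CRE and 1.63% the serum response element. These matches describe letters in the windows and say nothing of binding.

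Among the agonists, Il1b encodes IL-1β, which is made as an inactive precursor and cut by caspase-1. The gene lies on chromosome 2 at 129364570 to 129371139 on the minus strand (GRCm38). It had 25.4, 31.9, 31.1, 34.4 and 31.9 CPM in Areg libraries 1 to 5, against 16.6, 23.1, 20.9, 20.2 and 19.7 CPM in control libraries 1 to 5. Areg library 1 was the lowest of its group and still above control library 2, the highest control. Its log2 fold change was 0.63 ± 0.09 (SE), with an adjusted p of 0.000344 by edgeR. Il1b passed under every one of 24 alternative settings, with log2 fold changes of 0.51 to 0.69.

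Il1a encodes IL-1α, which is active as a precursor and acts at the surface of or after release from the cell. It lies on the same strand as Il1b, at 129299610 to 129309972 on chromosome 2, and 54597 bases separate the genes. Il1a had 111.7, 118.5, 128.2, 132.2 and 117.3 CPM in Areg libraries, against 89.1, 94.8, 84.1, 105.5 and 88.0 CPM in control libraries. The groups did not overlap, and control library 4 came closest to the Areg range. The log2 fold change was 0.40 ± 0.06 (SE), adjusted p 0.000689 by edgeR. In TPM, Il1a stood above Il1b in every library, at a mean of 107.6 TPM against 43.5 TPM in Areg cultures and 83.4 TPM against 28.6 TPM in control cultures. With a trend on transcript length and GC content removed from each library, the change of Il1a fell to 0.23 and missed the threshold (adjusted p 0.0507 by edgeR). With the same trend removed and controls 3 and 4 left out it was 0.32 (adjusted p 0.00229).

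Both agonist transcripts carry the pentamer ATTTA in the 3′ untranslated region (UTR), a sequence known for its part in the rapid decay of cytokine mRNAs. Il1b holds 4 in 459 bases, or 8.72 per kb, and Il1a holds 3 in 1101 bases, or 2.73 per kb. The median of 12765 tested genes with a 3′ UTR is 1.2 per kb. The stretches of 30 bases shown hold most of them, with the pentamers in capitals, in GRCm38 coordinates.
Il1b, chr2:129364803-129364832, minus strand: acttacctATTTATTTAtgtATTTAttgat
Il1a, chr2:129300103-129300132, minus strand: tctatgtATTTAtaaatatATTTAtgataa
The Il1b stretch holds 3 pentamers, of which the first 2 overlap, and starts at base 197 after the stop codon. The Il1a stretch holds 2 and starts at base 579. Il1rn, the antagonist, has 0 in 1306 bases, Il33 has 3 in 1663, Il1r1 has 8 in 2808, Il1rap has 8 in 2676, Il1rl1 has 1 in 1444 and Il18 has 1 in 123. Per kb, Il1rap (2.99) and Il1r1 (2.85) lie above Il1a, and Il18 (8.13) lies near Il1b. Il33 has 1.80 and Il1rl1 0.693 per kb. Such densities are thus not particular to the agonists, though that of Il18 rests on 1 pentamer in 123 bases. Whether the pentamers had a part in any change was not tested. The longer nonamer TTATTTATT was in the 3′ UTR of 0 of the 8 genes and of 7.28% of the tested genes.

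Il1rn, on the plus strand of chromosome 2 at 24336853 to 24351494, encodes the antagonist. It had 416.7, 448.1, 467.7, 468.3 and 429.8 CPM in Areg libraries, against 421.8, 414.3, 401.4, 448.7 and 431.0 CPM in control libraries. The groups overlapped widely, and Areg library 1 lay below 3 of the controls. The log2 fold change was 0.08 ± 0.05 (SE), adjusted p 0.305 by edgeR. With the length and GC trend removed its sign turned, at -0.02 (adjusted p 0.765 by edgeR).

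Set against its agonists, Il1rn had 3.27 ± 0.156 TPM per TPM of Il1a and Il1b together in Areg cultures and 4.14 ± 0.253 in control cultures (SD, n = 5 each). The ratio was 3.11 to 3.45 in Areg libraries and 3.76 to 4.47 in control libraries, with no overlap. This is a description without a test, since the ratio is built from genes already compared. In every library the antagonist transcripts outnumbered the agonist transcripts. The Il1rn level here sums all 6 of its transcripts, some of them short or without a coding region. Its secreted form Il1rn-201 alone averaged 309 TPM with Areg and 303 TPM in controls, so a ratio on that form would be lower in both groups.

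**Figure D2:**
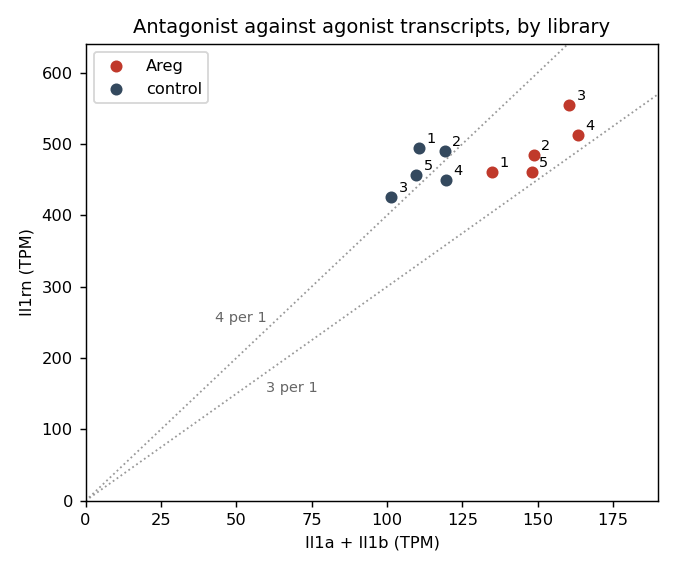
Il1rn level (y axis, TPM) against the sum of Il1a and Il1b (x axis, TPM) in the 10 libraries, numbered by replicate, with dotted lines at 3 and 4 TPM of Il1rn per TPM of agonist. The Areg libraries lie to the right, between the lines, and the controls lie around the steeper line, at similar Il1rn levels.

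Il33, on the plus strand of chromosome 19 at 29925114 to 29960718, encodes the alarm cytokine IL-33. It had 1017, 1098, 1092, 1221 and 1124 CPM in Areg libraries, against 830.1, 905.7, 895.4, 962.4 and 893.9 CPM in control libraries. Areg library 1 was the lowest Areg value and lay above control library 4, the highest control. The log2 fold change was 0.31 ± 0.05 (SE), adjusted p 0.00143 by edgeR. With the length and GC trend removed it fell to 0.16 and missed the threshold (adjusted p 0.0894 by edgeR), and with controls 3 and 4 also left out it was 0.26 (adjusted p 0.000623).

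Il18, on chromosome 9 at 50554827 to 50581840, encodes IL-18, an inducer of interferon gamma that Kupffer cells are known to make. It was near the lower limit of the assay, with rounded counts of 31, 22, 25, 25 and 19 in Areg libraries and 19, 8, 16, 8 and 23 in control libraries. Its mean was 1.39 ± 0.35 CPM in Areg cultures and 1.11 ± 0.48 CPM in control cultures (SD, n = 5 each). The groups overlapped, and a log2 fold change of 0.32 ± 0.30 (SE) gave an adjusted p of 0.486 by edgeR, so no difference was detectable at this depth.

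Among the receptors, Il1r1 encodes the signalling receptor of IL-1α and IL-1β and lies on the plus strand of chromosome 1 at 40225080 to 40317257. It had 406.6, 456.4, 449.1, 466.7 and 431.7 CPM in Areg libraries, against 371.5, 380.7, 313.9, 371.6 and 352.0 CPM in control libraries. Control library 3 was the lowest of all, and the groups did not overlap. The log2 fold change was 0.30 ± 0.06 (SE), adjusted p 0.00180 by edgeR. In TPM summed over all transcripts of the gene the groups overlapped, at 153 to 166 TPM with Areg and 117 to 157 TPM in controls. A limma fit on log2(TPM + 1) gave 0.22 with an adjusted p of 0.0835. The most abundant transcript alone, the coding Il1r1-202, did not overlap, at 127.06 to 143.19 TPM with Areg and 99.65 to 125.53 TPM in controls. Il1r1-201 and the noncoding Il1r1-203 did overlap, and Il1r1-203 was highest in control library 1, at 21.7 TPM. The TPM of single transcripts was not tested.

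Il1rap, on chromosome 16 at 26581704 to 26730117, encodes the accessory chain shared by the IL-1 and IL-33 receptors. It had 49.7, 51.2, 50.9, 45.5 and 51.8 CPM in Areg libraries, against 50.7, 48.1, 39.9, 38.5 and 44.4 CPM in control libraries. Controls 3 and 4 were the lowest values, control 5 lay just below the Areg range, and controls 1 and 2 lay within it. The log2 fold change was 0.16 ± 0.07 (SE), adjusted p 0.131 by edgeR, and it was 0.06 (adjusted p 0.5002) without controls 3 and 4. Leaving out control library 1 gave 0.22 and an adjusted p of 0.0399, the only one of 24 alternatives under which Il1rap passed.

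Il1rl1, which encodes ST2, lies 112312 bases beyond Il1r1 on chromosome 1, at 40429570 to 40465415. Its rounded counts were 23, 22, 27, 19 and 26 in Areg libraries and 20, 17, 6, 7 and 13 in control libraries. Its mean was 1.31 ± 0.11 CPM with Areg and 0.883 ± 0.25 CPM in controls (SD, n = 5 each), and controls 3 and 4 were again the lowest. A log2 fold change of 0.52 ± 0.24 (SE) gave an adjusted p of 0.148 by edgeR, and 0.31 (adjusted p 0.485) without controls 3 and 4.

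**Figure D3:**
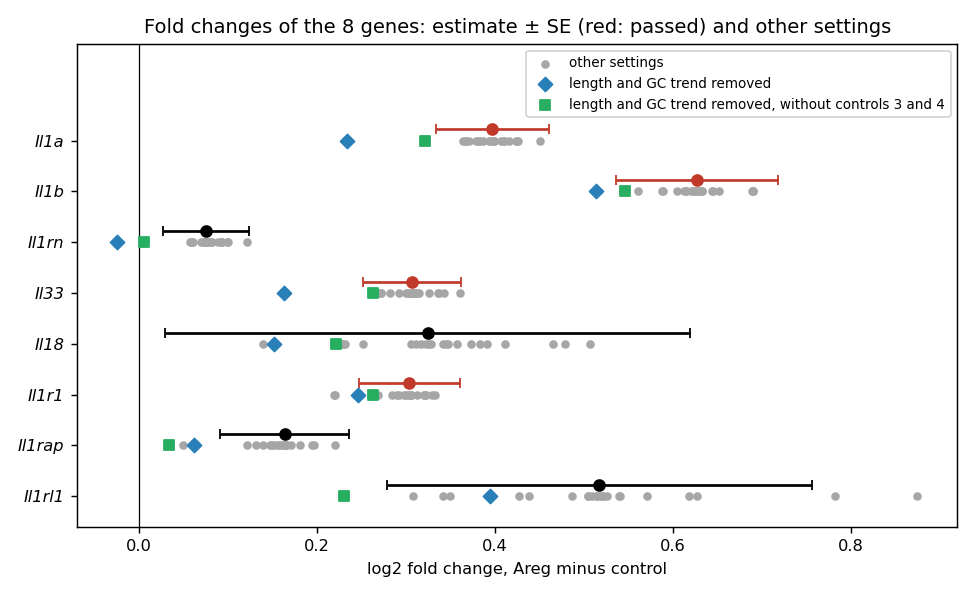
Log2 fold change of Areg minus control (x axis) for the 8 genes (y axis). Large dots with bars are the edgeR estimate ± SE (red where it passed), grey dots the alternative settings, blue diamonds the fit with the length and GC trend removed and green squares that fit without controls 3 and 4. Il1b stays to the right of 0.5 throughout, and Il1a and Il33 move left with the trend removed.

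The GC content of the most abundant transcript was 41.3 to 46.3% in the 8 genes, below the median of 50.1% over tested genes with a value. That bears on the 2 settings with the length and GC trend removed, which were chosen after seeing the data. Under the first, 2 of the 8 genes (Il1b and Il1r1) rose, and without controls 3 and 4 the count was 4.

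Several of the genes make more than 1 coding transcript, and the mix was compared by the share of the gene's TPM held by its most abundant transcript. Il33-201, which starts 20676 bases downstream of the other main transcript Il33-202, held 54.4% of Il33 with Areg and 56.0% in controls, and both encode the same 266 codons. Transcripts from the upstream start held 45.2% with Areg and 43.5% in controls. So both start sites printed here gave abundant Il33 RNA in both groups.

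For Il1rn, the secreted form Il1rn-201 (178 codons) held 62.7% with Areg and 65.5% in controls. Transcripts from the upstream start, among them the intracellular form Il1rn-204 (159 codons), held 23.0% with Areg and 21.1% in controls. Of these, Il1rn-204 itself held 8.79% with Areg and 9.25% in controls, and the short Il1rn-205 (52 codons) held 14.03% with Areg and 11.7% in controls. Il1rn-205 is 321 bases long and averaged 96.1 estimated counts a library, against 969 for Il1rn-204. On counts, which are not scaled to length, Il1rn-204 was thus the larger. Summed over libraries, the upstream start had 6301.6 counts with Areg and 4517.2 in controls, against 33608 and 24237 from the downstream start. Il1r1 came mainly from the downstream start, at 93.0% of its TPM with Areg and 94.3% in controls. Within that, the Il1r1-203 transcript (473 bases, 0 codons) held 7.97% with Areg and 11.6% in controls, on a mean of 42.0 estimated counts a library. Il1r1-201, from the upstream start, held 7.03% with Areg and 5.71% in controls, on a mean of 555 counts. For Il1rap, the long forms that span the membrane (570 codons in Il1rap-201) held 87.0% with Areg and 86.8% in controls. The short form Il1rap-206 (360 codons), known as a soluble accessory protein, held 12.5% with Areg and 12.8% in controls.

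The share of the leading transcript differed by -2.77 points for Il1rn-201, -1.62 for Il33-201, 2.32 for Il1r1-202 and 0.19 for Il1rap-201, Areg minus control. Exact permutation tests, two-sided and over every assignment of the libraries, gave p of 0.183, 0.532, 0.0714 and 0.921 in that order, and 0.365, 0.709, 0.286 and 0.921 after adjustment over the 4 genes. None passed, with 0.00794 the smallest p the design allows. Leaving out single libraries turned the sign of the Il33-201 and Il1rap-201 differences, and the Il1r1-202 difference was -1.13 points when shares were taken of estimated counts instead of TPM. Il1rl1 and Il18 had too few counts for the test. The short Il1rl1 forms (337 codons in soluble ST2) averaged 0.564 ± 0.172 TPM with Areg and 0.321 ± 0.123 TPM in controls, and the long membrane forms (567 codons) 0.150 ± 0.078 TPM with Areg and 0.137 ± 0.033 TPM in controls (SD, n = 5 each). These values rest on 73.9 estimated counts with Areg and 34.5 in controls for the short forms, and 42.2 with Areg and 29.1 in controls for the long forms, summed over libraries that were deeper in the Areg group, and were not tested.

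**Figure D4:**
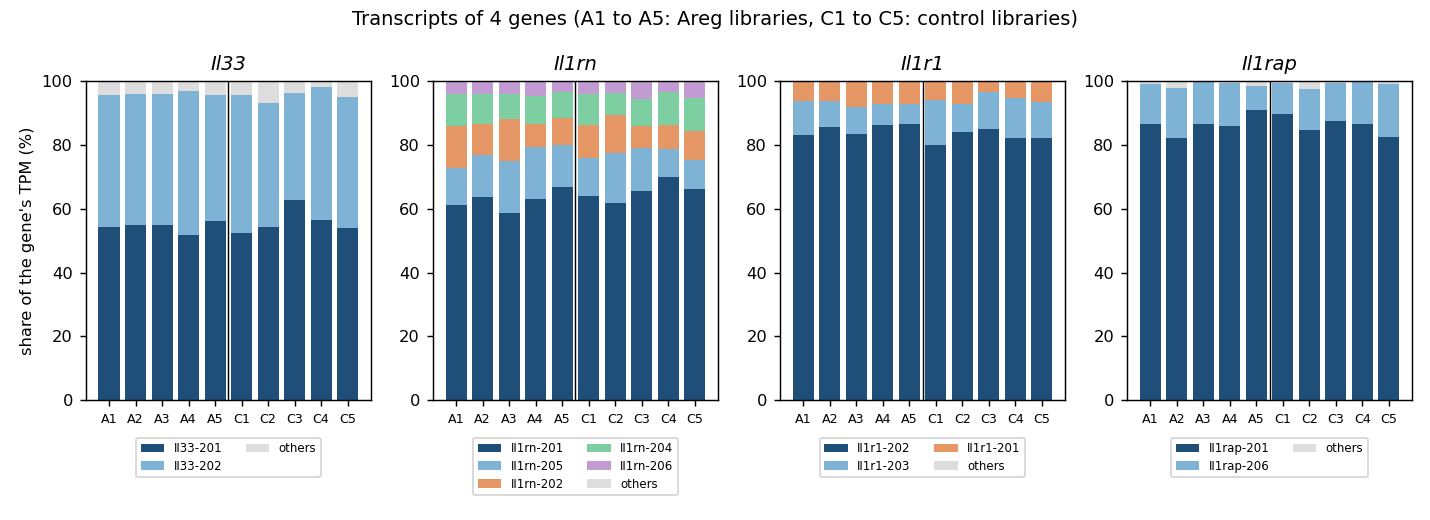
Share of each gene's TPM (y axis, percent) held by its transcripts in each library, Areg libraries (A1 to A5) left of the line and control libraries (C1 to C5) right of it. The dark segment at the base is the transcript that was tested, at 51.7 to 62.7% for Il33 in all 10 libraries, with the highest share in control library 3.

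Other genes of the pathway were described from lists. Of 5 other ligands and antagonists of the family, Il1f8, Il1f5 and Il1f10 had 0 counts in every library, which allows up to 0.0190 CPM over the 10 libraries by counting error alone. Only Il1f9 (IL-36γ) was tested, at 1.147 CPM with Areg and 1.03 CPM in controls, with a log2 fold change of 0.17 and an adjusted p of 0.745 by edgeR. Of 8 other receptors and binding proteins 3 were tested and 0 passed. Il1rl2, the IL-36 receptor, had 12.5 CPM with Areg and 10.8 CPM in controls (0.20, adjusted p 0.110 by edgeR). Il18bp, which neutralises IL-18, had 40.4 CPM with Areg and 46.5 CPM in controls (-0.20, adjusted p 0.138 by edgeR). Il18rap, the second chain of the IL-18 receptor, had 2.02 CPM with Areg and 1.95 CPM in controls (0.01, adjusted p 0.985 by edgeR).

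Of 12 genes for processing and release 10 were tested, 1 rose and 0 fell, a count near the 8.34% of all tested genes that rose. The median log2 fold change was 0.10, against -0.01 over all tested genes. Casp4, the inflammatory caspase that senses lipopolysaccharide (caspase-11 in mice), rose to 115 CPM with Areg, against 92.8 CPM in controls, by 0.31 ± 0.07 (SE, adjusted p 0.00857 by edgeR). It missed the threshold on both log2(TPM) scales, with transcript length as an offset and with the length and GC trend removed, with or without controls 3 and 4. Pycard, the inflammasome adaptor, had 1.76 CPM with Areg and 1.35 CPM in controls (0.37, adjusted p 0.270 by edgeR). Casp1, which cuts IL-1β, had 34.6 CPM with Areg and 32.04 CPM in controls (0.11, adjusted p 0.397 by edgeR).

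Of 20 genes of signalling close to the receptor, all tested, 2 rose and 1 fell, at a median log2 fold change of -0.00, and such a count is no more than the 16.7% of all tested genes that passed in either direction. Ube2n, a ubiquitin-conjugating enzyme that works with TRAF6, had 85.1 CPM with Areg and 69.3 CPM in controls (0.29, adjusted p 0.00717 by edgeR). Map3k8, a kinase upstream of ERK, had 55.3 CPM with Areg and 47.0 CPM in controls (0.24, adjusted p 0.00752 by edgeR). Map3k3, a MAP kinase kinase kinase, fell to 129.7 CPM with Areg, against 144.7 CPM in controls (-0.16, adjusted p 0.0286 by edgeR), and missed the threshold under 11 of 24 alternatives. Ube2n missed it under 2 of them and Map3k8 under 4. Myd88, which binds the receptor complex and was picked after its values were seen, had 78.4 CPM with Areg and 75.9 CPM in controls.

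Of 21 genes reported to respond to IL-1, 20 were tested, 8 rose and 0 fell, at a median log2 fold change of 0.24. Il6, a cytokine of the acute phase, had 79.9, 99.1, 92.0, 94.0 and 94.9 CPM in Areg libraries, against 43.7, 52.6, 39.1, 49.1 and 48.4 CPM in control libraries. Every Areg library was well above every control, at a log2 fold change of 0.98 ± 0.08 (SE, adjusted p 5.9e-07 by edgeR). Csf2, which encodes the growth factor GM-CSF, rose by 1.02 ± 0.23 (SE, adjusted p 0.00738 by edgeR) at 3.69 CPM with Areg and 1.85 CPM in controls, with overlapping groups. The chemokine gene Cxcl1 had 3985 CPM with Areg and 2689 CPM in controls (0.57), and the matrix metalloproteinase genes Mmp3 (0.65) and Mmp13 (0.37) rose as well, each with an adjusted p of at most 0.000853 by edgeR.

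Ptgs2 and Ptges, which encode an inducible cyclooxygenase and a prostaglandin E synthase, rose by 0.58 and 0.46 on the log2 scale (adjusted p 6.4e-06 and 5.4e-05 by edgeR). Ptges missed the threshold on both log2(TPM) scales and with the length offset, at 0.22 to 0.25. The chemokine gene Cxcl5 rose by 0.23 (adjusted p 0.0390 by edgeR) with overlapping groups, and missed the threshold under 15 of 24 alternatives. The other 12 tested genes did not pass, among them, picked after their values were seen, the NF-κB inhibitor genes Nfkbia (566 CPM with Areg and 542 CPM in controls, 0.06) and Tnfaip3 (269 CPM with Areg and 255 CPM in controls, 0.08). Picked in the same way from the 12, Saa3 had a log2 fold change of 0.37 (adjusted p 0.0579 by edgeR) and Nfkbiz one of -0.10 (adjusted p 0.135 by edgeR). Against the 8.34% of all tested genes that rose stood 8 of 20 here, in a list that was drawn up with earlier results on these data known.

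**Figure D5:**
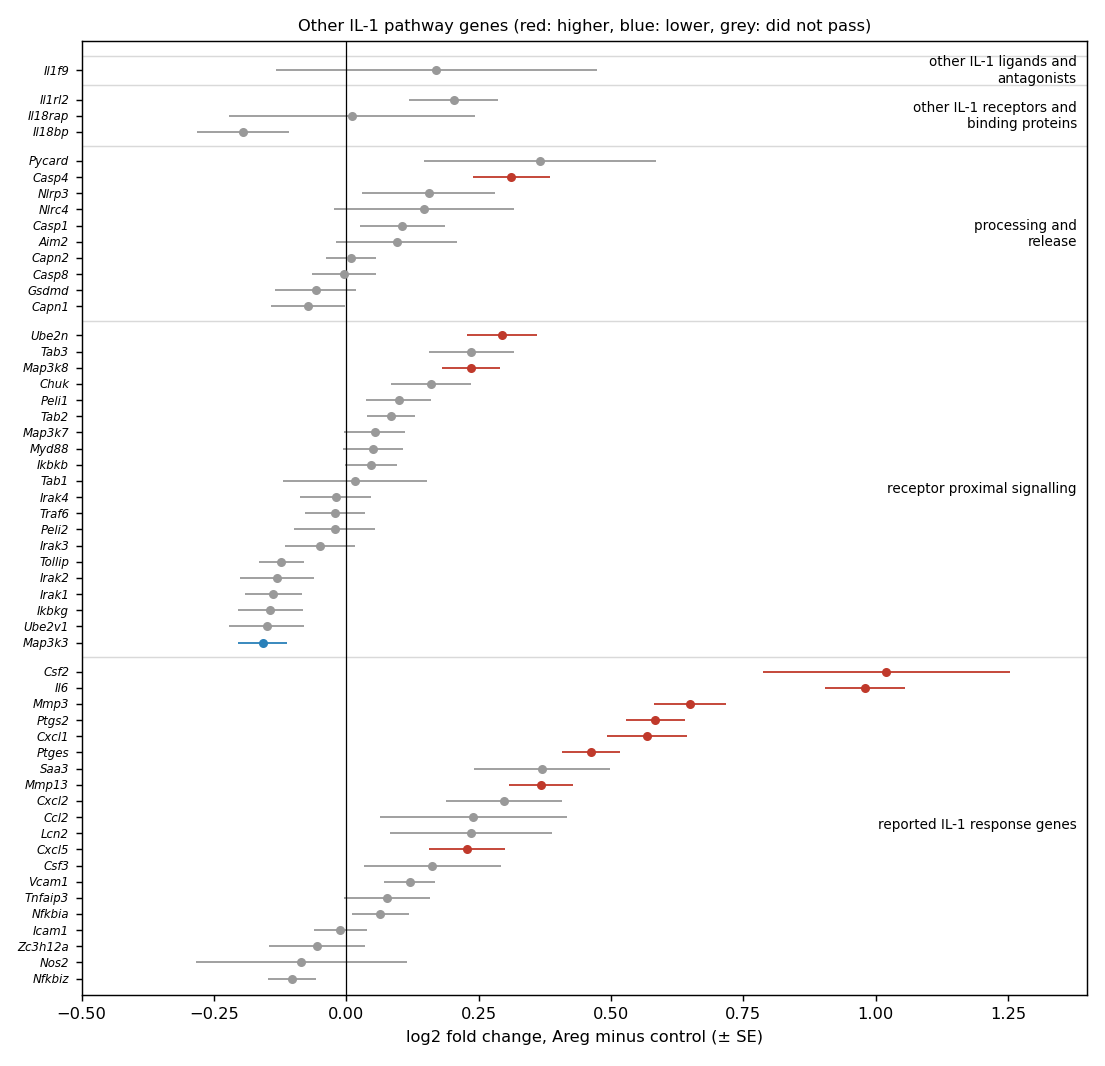
Log2 fold change of Areg minus control ± SE (x axis) for the tested genes of the 5 pathway lists (rows), red where higher, blue where lower and grey where the test was not passed. Il6 and Csf2 lie furthest to the right, and the signalling genes lie on both sides of 0.

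The genes whose deviations from the group means followed each gene most closely over the 10 libraries were found among 9954 genes. For Il1a they were Sema6d (Pearson r 0.97) and Fnbp4 (0.96). For Il1b they were Pigu (0.92) and Cxcl3 (0.88), for Il33 Lamp2 (0.94) and Cops4 (0.93), and for Il1r1 Pola1 (0.97) and Gm28043 (0.97). These correlations describe 10 libraries that share depth and library differences. Each was picked as among the highest of 9954, so high values can come from the picking alone, and none was tested.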

How the data were processed

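RNA of 5 Areg and 5 control libraries was sequenced after poly-A selection with Illumina TruSeq chemistry, per the labels' protocols. Per the file headers, the deposited files hold estimated counts and TPM per transcript. Estimated counts need not be whole, and TPM is by definition scaled to transcript length and to 1 common total. Tools and build named in the submitters' processing notes are GRCm38.p6, DESeq2, bcl2fastq 2.19 and kallisto 0.44.0. Which transcript set and strand setting were used is not given in the sources used here, so reads shared by similar or overlapping genes are uncertain.

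Transcripts were joined to genes through GENCODE M21 (GRCm38), which matched 116816 of 118489; the other 1673 held 0.736 to 0.778% of the counts. Estimated counts were summed per gene and rounded. Counts of replicates varied beyond sampling noise, with a chi-square of 3.77 to 49.7 for each degree of freedom. The filterByExpr filter (minimum count 10, minimum total 15) came before the test, which was made with edgeR 4.0.16 (R 4.3.3, quasi-likelihood, robust, TMM, no covariate). Fold changes are Areg minus control, and their SE was taken from the F statistic. CPM values are TMM-scaled. On simulated data of 13362 genes the procedure recovered 38.3% of 1.25-fold changes, 77.6% of 1.5-fold changes and 88.4% of 2-fold changes. A gene that did not pass may thus still have changed by a small amount.

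Alternatives were DESeq2 1.42.0 size factors, upper quartile factors, no filter, a mean of at least 1 CPM, DESeq2, limma-voom (limma 3.58.1), log2(TPM + 1), log2(TPM + 0.1), a transcript length offset, 1 surrogate variable (sva 3.50.0), the replicate number as a block, each library left out, and controls 3 and 4 left out. Removing a trend on length and GC content, with and without controls 3 and 4, was chosen after seeing the data. The 8 genes and all lists were chosen with earlier results of these data known. Named genes were the 8; of each pathway list those that passed and, where fewer than 3 did, those of smallest p up to 3; for each of the 8 that passed the 2 protein coding genes (mean of at least 5 CPM) with the largest Pearson r; and of marker lists the 3 highest and those at 0. Transcript shares were tested where at least 2 transcripts held 5% of the TPM and 10 counts on average. The transcript forms were classed after seeing the data. Intervals and floors (3 counts) cover counting error only.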

Additional observations from a re-analysis of the deposited data

Results flagged for a closer look

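The ratio of Il1r1 TPM to Il1rap TPM averaged 8.22 ± 0.646 in Areg cultures and 7.84 ± 0.883 in control cultures (SD, n = 5 each), and 1 library of each group stood far from its group. Areg library 4 was at 9.35, against 7.80 to 8.17 in the other Areg libraries. Control library 4 was at 9.40, against 7.33 to 7.68 in the other controls. Dixon's 95% limit for 5 values is a gap of 0.710 of the range, and the gaps were 0.758 and 0.828. Of 28 groups of values examined these 2 passed it, and chance flags about 1 in 20. Both flagged libraries carry replicate number 4, and whether they share an origin is not given by the labels and was not tested.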

How the results depend on the processing

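Areg against control gave 2226 genes in the test described above. It gave 856 genes on log2(TPM + 1), 868 on log2(TPM + 0.1), 1161 with a transcript length offset and 1364 to 2314 with 1 library left out, the lowest without Areg library 2. Of the 2226 genes 1114 were higher, against 322 of the 856 and 325 of the 868. The count of the 8 genes that rose was 4, and 2 with the length and GC trend removed. The sign of Il1rn turned under that setting, to -0.025. Of other receptors 0 to 1 passed with 1 library left out. The processing list gave 1 gene, and 0 on both TPM scales, with the length offset and with the length and GC trend removed, with or without controls 3 and 4. The signalling list gave 3 genes, 5 by DESeq2 and without controls 3 and 4, 1 on both TPM scales, with the length offset and with the trend removed, and 2 to 5 with 1 library left out. The Il33-201 share difference was -2.49 to 0.046 points with 1 library left out, the highest without control library 3, and 0.78 without controls 3 and 4. The Il1r1-202 difference was -1.13 points on estimated counts, and Il1rap-201 ran over -0.94 to 1.23 points with 1 library left out. The cause was not tested. Under the other alternatives run, the counts for the whole table, the 8 genes and the lists stayed within 1.5 times, and no share difference passed or turned its sign. The labels do not say whether replicate numbers pair the libraries, and correlations did not settle it. Of 5 pairs 2 correlated above 0.1 (range -0.05 to 0.19), and 2 of 5 Areg libraries correlated best with their own number. The replicate block gave 2357 genes, 4 of the 8 among them, all higher. Depth limits Il18 and Il1rl1, with 6 to 31 counts a library.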
